A study of Mus musculus with 12 samples.

Results

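Msln, Smyd1, Fat2, Gpx2, St8sia1, Tmprss5, Megf11 and Loxl4 are 8 genes that stood low in wild-type mouse embryonic stem cells (ESCs) and high in ESCs without Dicer1 or without Dgcr8. They were picked by name, out of 18412 genes measured, for a low wild-type level and a high knockout level in the same tables that are described here, so the size of their change is a description and carries no p-value. A near-silent wild-type level did not hold for St8sia1, which averaged 304.2 reads in TFC and 144.9 in V6.5, for Gpx2 in TFC or for Loxl4 in V6.5. RNA was sequenced in 4 groups of 3 libraries, from the Dicer knockout line (Dicer1-/-) and its wild-type control TFC, and from the Dgcr8 knockout line (Dgcr8-/-) and its wild-type control V6.5. All 4 groups were ESCs kept on gelatin-coated plastic in serum with leukaemia inhibitory factor, and polyadenylated RNA was made into strand-specific libraries. Since knockout and control are different cell lines, the effect of the lost factor and other differences between lines cannot be told apart. The labels do not state separate cultures for the libraries of a group.

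Dgcr8 binds primary microRNA transcripts for the nuclear cut by Drosha, and Dicer makes the cytoplasmic cut that releases the mature microRNA, so most microRNAs need both proteins. A mature microRNA pairs through its seed with sites in the 3' untranslated region (UTR) of a messenger RNA and lowers the level or translation of that RNA. Exonic reads come mostly from spliced RNA, and intronic reads from RNA that still holds introns, so the 2 kinds of read are often set side by side to compare mature RNA with unspliced precursor.

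The 8 genes are known from different tissues. Msln encodes mesothelin, a surface glycoprotein of mesothelial cells, and Fat2 and Megf11 encode large surface proteins, a FAT protocadherin of epithelia and neurons and a protein with many EGF-like domains that spaces retinal neurons. Smyd1 is a methyltransferase of heart and skeletal muscle. Gpx2 is the selenium-containing glutathione peroxidase of the gut lining, St8sia1 makes the ganglioside GD3, Tmprss5 is a membrane-anchored serine protease also called spinesin, and Loxl4 belongs to the lysyl oxidases that crosslink collagen and elastin.

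The microRNAs of ESCs that share the seed AAGUGCU (bases 2 to 8, in capitals in each line) are shown because this family is abundant in ESCs and its maturation needs both proteins, and miR-17-5p because its seed is the same run shifted by 1 base. All 4 sequences are RefSeq mature sequences, 5' to 3'.
miR-291a-3p: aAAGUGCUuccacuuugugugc
miR-294-3p: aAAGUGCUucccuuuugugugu
miR-302b-3p: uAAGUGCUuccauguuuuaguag
miR-17-5p: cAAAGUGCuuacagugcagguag

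A 7-base match to these seeds was present in the longest annotated 3' UTR of 2 of the 8 genes. Smyd1 held AGCACTT, the match to AAGUGCU, at base 1635 of its 1811-base 3' UTR, and 15.1% of the 17864 genes with an annotated 3' UTR held the same 7 bases somewhere. GCACTTT, which pairs with the miR-17 seed AAAGUGC, began 1 base further on in Smyd1, so both matches lie on the same stretch. Fat2 held GCACTTT at bases 759 and 810 of 1357, against 12.2% of all genes with at least 1 such match. The lines give each site, with the match in capitals and the neighbouring bases in lower case, on the strand of the messenger RNA.
Smyd1, match to AAGUGCU: attttcctacaaAGCACTTtatttgca
Fat2, match to AAAGUGC at base 759: caaacgtcccagGCACTTTtagccaag
Fat2, match to AAAGUGC at base 810: aaaacttcttagGCACTTTtcaacctt

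St8sia1, whose 3' UTR of 7239 bases is longer than that of 99.0% of genes, held 1 match to the seed of miR-130a-3p and 1 to that of let-7a-5p, and none to the 2 seeds above. Those matches occurred in 10% and 9.34% of all genes. Msln, Gpx2, Tmprss5, Megf11 and Loxl4 held no match to any of the 6 seeds searched, which included those of miR-19b-3p and miR-92a-3p. The 3' UTR of Msln has 129 bases and that of Gpx2 315 bases, while Megf11 has 3255 bases. A match describes letters only, and it was not tested whether any of these sites is bound.

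Promoters are shown for Smyd1 and Gpx2, which have few or no CpG dinucleotides, and for Loxl4, which has many. Each line gives 250 bases before and 50 after the start of the gene in RefSeq's annotation of GRCm38.p6, read along the strand of the gene, with every CpG in capitals.
Smyd1 promoter, chr6:71262232-71262531, minus strand: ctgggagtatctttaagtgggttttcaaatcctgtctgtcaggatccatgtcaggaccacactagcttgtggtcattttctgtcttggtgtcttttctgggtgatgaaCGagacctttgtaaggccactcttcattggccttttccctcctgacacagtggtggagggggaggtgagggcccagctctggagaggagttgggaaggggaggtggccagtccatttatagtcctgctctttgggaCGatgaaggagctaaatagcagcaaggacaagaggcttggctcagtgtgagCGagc
Gpx2 promoter, chr12:76795505-76795804, minus strand: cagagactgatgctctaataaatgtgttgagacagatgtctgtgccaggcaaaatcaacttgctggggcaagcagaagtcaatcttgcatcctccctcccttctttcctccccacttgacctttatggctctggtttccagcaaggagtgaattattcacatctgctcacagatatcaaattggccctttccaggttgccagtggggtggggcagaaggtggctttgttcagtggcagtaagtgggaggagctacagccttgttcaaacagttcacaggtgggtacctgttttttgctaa
Loxl4 promoter, chr19:42612757-42613056, minus strand: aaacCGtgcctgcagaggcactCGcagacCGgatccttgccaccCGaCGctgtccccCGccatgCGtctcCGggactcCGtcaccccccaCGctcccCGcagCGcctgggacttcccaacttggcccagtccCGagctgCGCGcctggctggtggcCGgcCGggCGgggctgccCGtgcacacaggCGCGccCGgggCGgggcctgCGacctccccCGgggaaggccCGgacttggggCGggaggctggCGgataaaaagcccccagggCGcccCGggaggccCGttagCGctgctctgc

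Of the 6 genes with a promoter in the RefSeq table, 4 had an observed over expected CpG ratio under 0.3, against 24.3% of 14124 promoters of the same length. The ratio was 0.00 in Gpx2, 0.04 in Tmprss5, 0.16 in Smyd1 and 0.28 in Fat2. St8sia1 at 0.62 and Loxl4 at 0.76 stood at either side of the median of all promoters, 0.66. Gpx2 had 0 CpG dinucleotides, Smyd1 3 and Loxl4 32, where the median promoter had 16. The windows of Smyd1, Tmprss5 and Fat2 lie well inside the spans given for these genes below, which reach further upstream. Whether these RefSeq starts are the ones used in these cells was not tested. St8sia1 and Loxl4, whose ratios were not under 0.3, differed in their wild-type level, in opposite order in TFC and V6.5. St8sia1 stood at 33.8 exonic reads per kilobase in TFC and Loxl4 at 1.77, while in V6.5 St8sia1 stood at 16.1 and Loxl4 at 47.7.

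**Figure D1:**
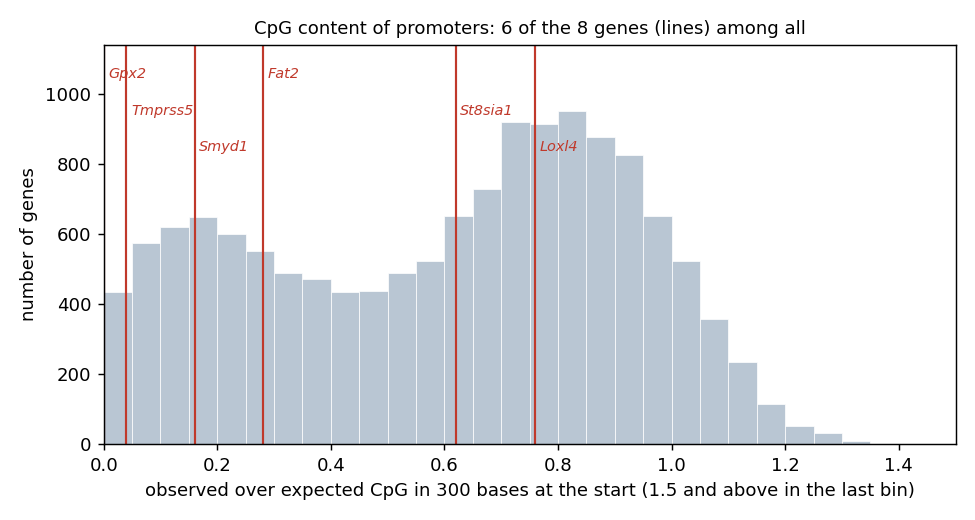
Histogram of the observed over expected CpG ratio (horizontal axis) in 300 bases at the start of 14124 genes (vertical axis, number of genes), with lines at 6 of the 8 genes. Gpx2 (0.00), on the left edge, Tmprss5 (0.04), Smyd1 (0.16) and Fat2 (0.28) lie under 0.3, and St8sia1 (0.62) and Loxl4 (0.76) lie in the main mass.

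A search of both strands of these promoters for 6 motifs found no motif in all 6 genes. CAGACA, a core bound by Smad proteins, was in Smyd1, St8sia1 and Gpx2, 3 of 6, and in 17.6% of all promoters. CCAAT was in the same 3 genes and in 38.6% of all promoters. GGGCGG was in St8sia1 and Loxl4 and in 53.2% of all, and TATAAA was in Smyd1 alone among the 6, read on the strand opposite to the gene 28 bases before its start, and in 10.7% of all. CACGTG and TGACTCA were in none of the 6 genes, against 8.77% and 4.41% of all promoters. None of the 6 motifs is contained in another, and a match is not a bound site.

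The genes' values below are normalised reads, the authors' reads scaled per library, and they are given for libraries A, B and C of each group in that order. The deposited tables hold group means, from which each library's reads were recovered as described under the processing. Library A of each group correlated least with B and C, so values with single libraries left out are given for the genes they move most. The letter A was set by that correlation in these same values, and no label ties the A libraries of different groups together. Results with a term for library A therefore only describe how calls depend on the setting, and no conclusion is drawn from their p-values. A library held 5889725 to 31137650 reads in exons and 559057 to 5597604 in introns, the lowest of both in library A of V6.5. Dicer1 RNA itself stood at 1333.5, 1762.9 and 1674.5 reads in exons of the Dicer knockout against 2943.8, 3277.8 and 3496.4 in TFC (limma adjusted p = 0.0756, and 0.00202 with a term for library A), and Dgcr8 RNA at 342.1, 955.5 and 1113.6 in the Dgcr8 knockout against 1929.8, 2707.1 and 2947.1 in V6.5 (limma adjusted p = 0.11, and 0.00128 with that term). Each targeted gene was thus lower without overlap in its own knockout line, while RNA of both remained. The labels do not say which exons the alleles lack. Of 10 ESC markers, 0 passed the test in either pair. By limma, 8 were tested in the Dicer pair and 9 in the Dgcr8 pair. Of these, 0 and 3 had an unadjusted p under 0.05, and 0 and 5 passed with a term for library A. Higher in the knockout were 5 and 8, with median log2 fold changes of 0.15 and 0.86. Dppa5a, not tested in either pair, had 44715.9 reads in the Dicer knockout against 18225.5 in TFC. It had 31119.4 in the Dgcr8 knockout against 15117.4 in V6.5. Of all genes tested, 14.5% in the Dicer pair and 16.2% in the Dgcr8 pair had an unadjusted p under 0.05, and 12.2% and 16.9% passed with a term for library A; the counts of that kind given for lists below stand beside these shares. The summed level of the ESC markers with a value in all 6 libraries of a pair was 85259.0 to 109122.9 reads in the Dicer knockout and 69312.3 to 102552.9 in TFC over 8 markers, and 72686.3 to 102907.2 in the Dgcr8 knockout and 29582.7 to 88220.3 in V6.5 over 9.

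In exons, all 8 genes were higher in the Dicer knockout without overlap of libraries, as were 11.7% of the 13168 genes tested. In the Dgcr8 knockout 7 of 8 were, Loxl4 being the exception, as were 10.6% of 12737 genes. By limma, 6 of the 8 passed an adjusted p under 0.05 as higher in each pair, beside 1.02% of genes tested in the Dicer pair and 0.746% in the Dgcr8 pair. Nothing is read from these counts, since the exonic change chose the genes. All 8 passed the filter on low values in exons in both pairs. The median exonic log2 fold change of the 8 was 5.95 in the Dicer pair, where the median of all genes tested was -0.01, and 5.04 in the Dgcr8 pair, where it was -0.08. Leaving out single libraries moved the genes with wild-type libraries at 0 most, in exons of the Dicer pair between 6.43 and 9.12 for Smyd1, 5.26 and 7.68 for Fat2, 3.32 and 5.86 for Tmprss5, 6.52 and 8.91 for Megf11 and 7.39 and 9.84 for Loxl4.

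**Figure D2:**
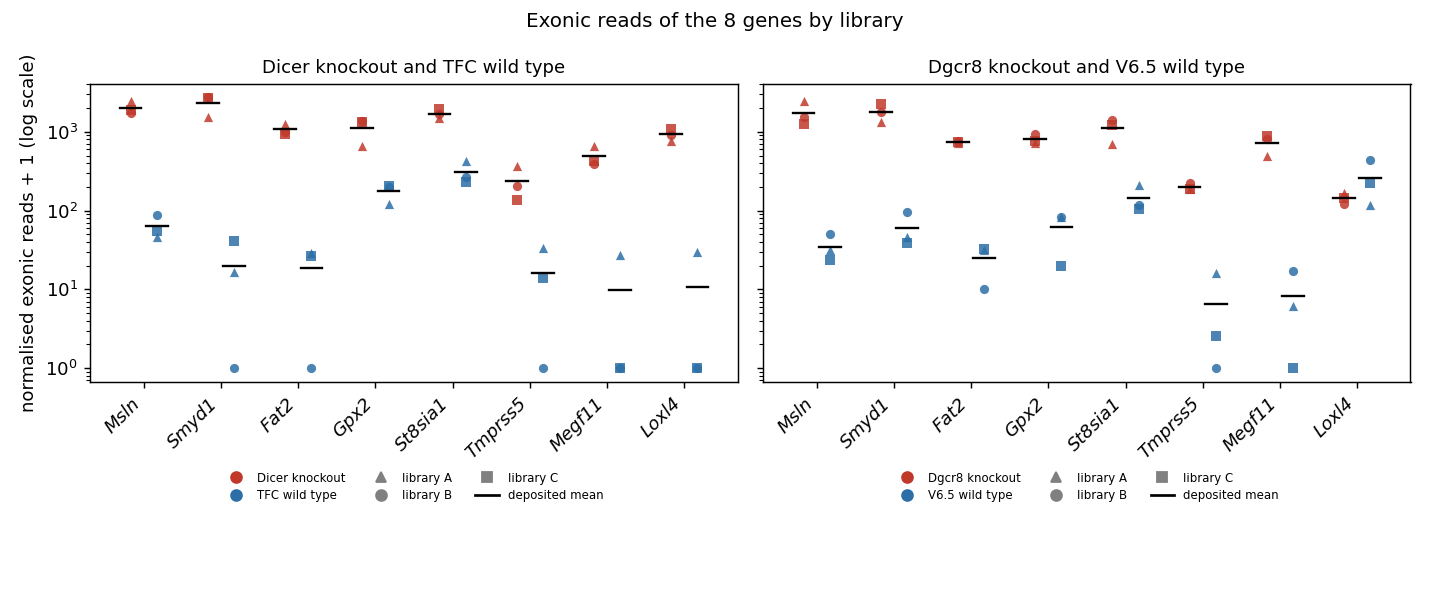
Normalised exonic reads plus 1 (vertical log axis) of the 8 genes in each library, with Dicer knockout left of TFC in the left panel and Dgcr8 knockout left of V6.5 in the right panel; symbols mark libraries A, B and C and black bars the deposited group means. The knockout libraries lie above the wild-type ones for every gene except Loxl4 in the Dgcr8 pair, where the groups overlap.

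Msln lies on chromosome 17 (25748613 to 25754378, minus strand, GRCm38). Its exonic level was 2469.6, 1719.7 and 1879.0 reads in the Dicer knockout against 44.9, 87.5 and 54.7 reads in TFC. For the Dgcr8 knockout the values were 2447.1, 1558.4 and 1249.5 reads against 30.5, 49.0 and 22.3 reads in V6.5. The lowest of the 6 knockout libraries stood at 1249.5 reads and the highest of the 6 wild-type libraries at 87.5. The ratio of group means was 32.4 in the Dicer pair and 51.6 in the Dgcr8 pair, with log2 fold changes of 5.04 (SE 0.45) and 5.66 (SE 0.48). Per kilobase of exon, Msln held 956.4 reads per kb in the Dicer knockout, where Gpx2 alone of the 8 genes was higher, and 828.2 in the Dgcr8 knockout, where it was the highest of the 8.

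Fat2 on chromosome 11 (55250609 to 55336564, minus strand) stood at 1263.9, 1004.1 and 948.1 reads in exons of the Dicer knockout, against 27.8, 0.0 and 25.9 reads in TFC. Its Dgcr8 knockout libraries held 729.3, 769.1 and 732.3 reads, against 30.5, 9.1 and 31.9 reads in V6.5. These 3 knockout values were closer together, relative to their mean, than those of the other 7 genes. The ratios of means were 59.9 and 31.2, and the log2 fold changes 6.86 (SE 1.31) in the Dicer pair and 5.09 (SE 0.61) in the Dgcr8 pair. The exons counted for Fat2 are long, so per kilobase it was low even in the knockouts, at 74.3 reads per kb in the Dicer knockout and 51.6 in the Dgcr8 knockout.

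Megf11 on chromosome 9 (64385626 to 64709205, plus strand) stood at 663.3, 393.0 and 421.0 reads in exons of the Dicer knockout, against 26.2, 0.0 and 0.0 reads in TFC. The Dgcr8 knockout held 499.4, 806.4 and 877.8 reads, and V6.5 held 5.1, 16.3 and 0.0. The lowest knockout library held 393.0 reads and the highest wild-type library 26.2. The ratios of means were 56.4 in the Dicer pair and 102 in the Dgcr8 pair, and the log2 fold changes 7.32 (SE 1.52) and 7.23 (SE 1.06). In the Dicer pair all wild-type exonic reads of Megf11 came from library A.

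Smyd1 on chromosome 6 (71213940 to 71322233, minus strand) stood at 1536.1, 2752.3 and 2718.3 reads in exons of the Dicer knockout, against 15.5, 0.0 and 40.3 in TFC. The Dgcr8 knockout held 1339.3, 1810.9 and 2265.7, against 45.7, 94.4 and 38.3 in V6.5. Library A was the lowest knockout library in both lines, yet above every wild-type library by more than 10 times. The ratio of means was 125.6 in the Dicer pair and 30.4 in the Dgcr8 pair, and the log2 fold changes were 8.0 (SE 1.27) and 4.98 (SE 0.46).

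Gpx2 on chromosome 12 (76792333 to 76795554, minus strand) was not near-silent in TFC. It had 654.3, 1388.1 and 1338.6 reads in exons of the Dicer knockout, against 119.8, 200.1 and 204.2 in TFC, a ratio of 6.45 and a log2 fold change of 2.64 (SE 0.46). It had 721.0, 947.0 and 770.7 reads in the Dgcr8 knockout, against 81.3, 81.6 and 19.1 in V6.5, a ratio of 13.4 and a log2 fold change of 3.97 (SE 0.63). Per kilobase, Gpx2 at 163.7 reads per kb in TFC lay above 55.6% of the genes with any exonic reads in that line. At 56.9 reads per kb in V6.5 it lay above 39.8% of such genes. Its level in the Dicer knockout, 1056.2 reads per kb, was the highest of the 8 genes there.

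St8sia1 on chromosome 6 (142821545 to 142964452, minus strand) was the other gene that was not near-silent. Its exons held 1500.9, 1683.4 and 1934.8 reads in the Dicer knockout, against 422.6, 262.6 and 227.2 in TFC. The Dgcr8 knockout libraries had 696.4, 1392.1 and 1220.8 reads, against 213.3, 116.1 and 105.2 in V6.5. Knockout and wild-type libraries did not overlap in either pair, though every wild-type library held over 100 reads. Its ratios, 5.61 in the Dicer pair and 7.61 in the Dgcr8 pair, and its log2 fold changes, 2.53 (SE 0.34) and 2.93 (SE 0.44), were the lowest among genes higher in both knockouts.

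Tmprss5 on chromosome 9 (49081260 to 49117587, plus strand) was read at a low number throughout. Its exons held 362.9, 206.7 and 134.1 reads in the Dicer knockout, against 32.6, 0.0 and 12.9 in TFC, and 188.2, 222.2 and 188.7 in the Dgcr8 knockout, against 15.2, 0.0 and 1.6 in V6.5. The groups did not overlap in either pair. The ratios of means were 15.4 and 35.6, with log2 fold changes of 4.80 (SE 1.49) in the Dicer pair and 5.85 (SE 1.14) in the Dgcr8 pair. Only 7 recovered exonic reads stand behind the V6.5 mean, so the second ratio rests on few reads.

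Loxl4 on chromosome 19 (42593982 to 42612813, minus strand) was high in the Dicer knockout alone. Its exons held 774.4, 915.5 and 1083.6 reads in the Dicer knockout, against 28.9, 0.0 and 0.0 in TFC, a ratio of 96.0 and the highest log2 fold change of the 8 genes, 8.21 (SE 1.46). They held 165.2, 121.2 and 142.3 reads in the Dgcr8 knockout, against 116.8, 440.9 and 220.0 in V6.5. The groups overlapped there, and the log2 fold change was -0.66 (SE 0.57). Per kilobase, Loxl4 in V6.5 lay above 37.2% of the genes with any exonic reads in that line, whereas in TFC it lay above 6.8% of such genes. That Loxl4 was near-silent in wild type and high in the knockout thus holds for the Dicer pair and not for the Dgcr8 pair, though the difference between the pairs was not tested. The other lysyl oxidases did not pass the test in either pair. Of 4 tested, 1 was higher in the Dicer pair (median log2 fold change -0.54) and 0 in the Dgcr8 pair (median -1.32). Loxl2 had 219.0 reads in the Dicer knockout against 388.5 in TFC, and 274.6 in the Dgcr8 knockout against 855.4 in V6.5. It was lower without overlap in the Dgcr8 pair (log2 fold change -1.5, SE 0.45, limma adjusted p = 0.149, and 0.00923 with a term for library A).

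Asking for a wild-type mean under 100 exonic reads, a knockout mean of at least 100 and a ratio of at least 10 puts the label in numbers. For Dicer, 54 of 8277 genes with a low wild-type mean met this, 0.652%, among them 6 of the 8 genes, without Gpx2 and St8sia1. For Dgcr8, 55 of 8634 did, 0.637%, among them 6 of the 8, without St8sia1 and Loxl4. Both conditions held in 13 of 7858 genes with a low mean in both wild-type lines, 0.165%. These 13 included Msln, Smyd1, Fat2, Tmprss5 and Megf11, and among the other genes 1810010H24Rik, C1qtnf9, Cbr3, Hoxa10, Ndnf, Pkhd1 and Skida1. Gpx2 missed the limit with a TFC mean of 174.7 reads, and Loxl4 with a V6.5 mean of 259.2 reads.

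By the distance between log2 levels in the 4 groups, the gene most like the median of the 8 that is not itself among them was Cbr3, a carbonyl reductase. It averaged 501.4 reads in the Dicer knockout against 37.2 in TFC, and 832.0 in the Dgcr8 knockout against 82.3 in V6.5, at a distance of 1.73. Egfl6 (2.12), Pof1b (2.24), Aspa (2.35), Gsdmd (2.37), Apobec2 (2.42), Mb21d1 (2.45), Rbm20 (2.53), AA414768 (2.58) and Stambp (2.66) followed by distance. Fat2 (0.89) and Smyd1 (1.68) were nearer to that median than any of these, and Msln (2.29) lay among them. Megf11 (2.92), Gpx2 (3.22), Loxl4 (3.6), Tmprss5 (4.08) and St8sia1 (4.40) were farther than all of these. The distance covers 4 group means and says nothing of control or function.

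In introns, the levels of the 8 genes differed more from gene to gene. The filter on low values was passed by 7 of 8 genes in the Dicer pair (not Fat2) and 6 of 8 in the Dgcr8 pair (not Gpx2 and Loxl4). Where the wild-type level is near 0, passing this filter rests on the knockout level, so nothing is read from the counts that follow. Of the genes that passed, 6, all but St8sia1, were higher without overlap in the Dicer knockout, beside 9.27% of 11625 genes tested, and 6 in the Dgcr8 knockout, beside 9.61% of 10748. By limma 3 passed as higher in the Dicer pair, beside 0.275% of genes, and 4 in the Dgcr8 pair, beside 1.11%. The choice of genes rested on intronic tables as well, so these counts too are a description.

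**Figure D3:**
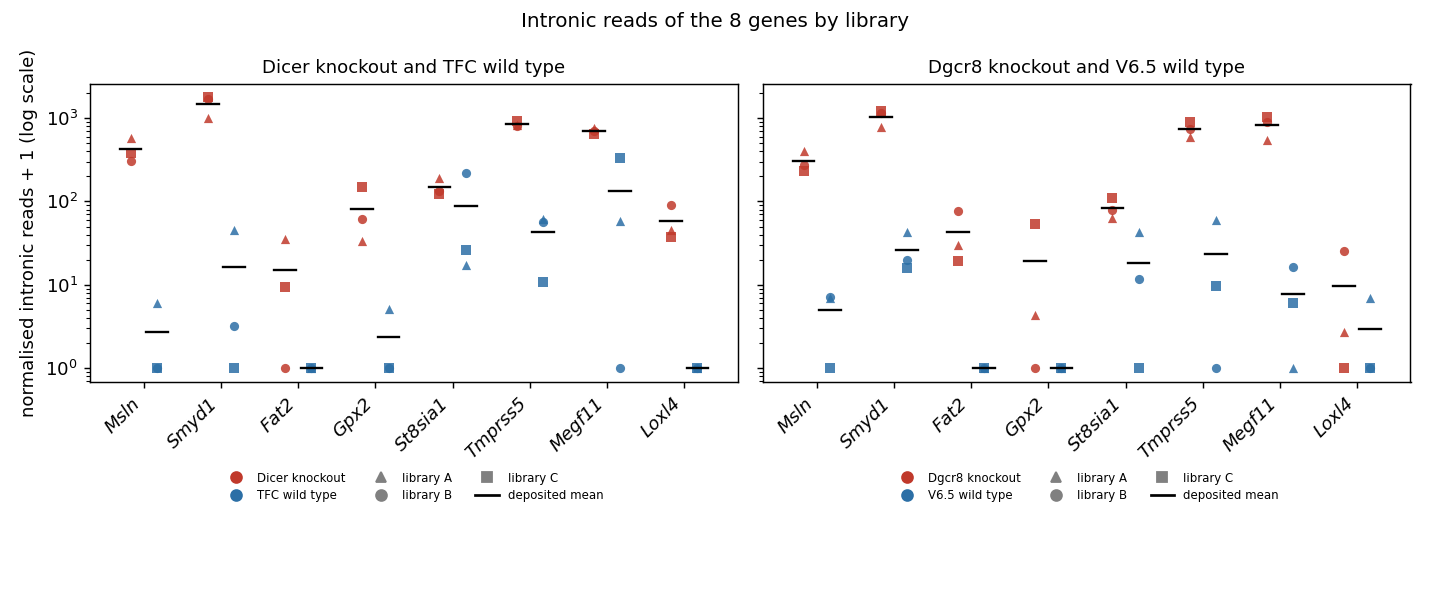
Normalised intronic reads plus 1 (vertical log axis) of the 8 genes in each library, with Dicer knockout left of TFC and Dgcr8 knockout left of V6.5; symbols mark libraries A, B and C and black bars the deposited group means. Smyd1, Tmprss5 and Msln stand high in every knockout library, while no library of Fat2, Gpx2 or Loxl4 exceeds 149.6 reads and their wild-type libraries hold 0 to 5.9.

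Introns of Smyd1 held 1001.1, 1684.0 and 1778.1 reads in the Dicer knockout against 44.2, 2.2 and 0.0 in TFC. They held 770.9, 1139.3 and 1208.8 reads in the Dgcr8 knockout, against 41.5, 18.6 and 15.0 in V6.5. No library overlapped, and the ratios of intronic means, 96.1 in the Dicer pair and 41.6 in the Dgcr8 pair, stood beside exonic ratios of 125.6 and 30.4. The exonic minus intronic log2 fold change of Smyd1 was -0.09 (SE 2.01) in the Dicer pair and -0.49 (SE 0.65) in the Dgcr8 pair, both smaller than their SE. The intronic log2 fold change of the Dicer pair, 8.10, was 9.65 without library A of TFC and 6.90 without library C of TFC.

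Tmprss5 stood out for its share of intronic reads. Its introns held 835.6, 791.7 and 928.6 reads in the Dicer knockout against 60.5, 55.6 and 9.8 in TFC, and 595.0, 739.7 and 887.5 in the Dgcr8 knockout against 59.2, 0.0 and 8.7 in V6.5. The ratios were 20.3 and 32.7, beside exonic ratios of 15.4 and 35.6. Per kilobase, its intronic level was 59.4% of its exonic level in the Dicer knockout and 60.7% in the Dgcr8 knockout. These shares lay above 98.8% and 99.1% of the genes with at least 10 exonic reads and any intronic reads in the same group. The medians of those genes were 2.49% and 2.02%. In TFC the share was 45.2%, so the high intronic share of Tmprss5 was also there in wild-type cells.

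Megf11 held 759.5, 699.3 and 650.6 intronic reads in the Dicer knockout against 56.9, 0.0 and 335.4 in TFC. The Dgcr8 knockout held 551.5, 903.7 and 1016.0 intronic reads, against 0.0, 15.5 and 5.0 in V6.5. Library C of TFC, with 335.4 intronic reads, held 0 exonic reads of Megf11, and it brings the intronic ratio of the Dicer pair to 5.38, where that of the Dgcr8 pair was 120.8. The intronic and exonic letters of libraries B and C were matched weakly, so that the 2 values may belong to different libraries. The intronic log2 fold change of the Dicer pair, 4.71 (SE 1.34), was 6.53 without library C of TFC and 2.33 without library B of TFC.

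Msln held 574.5, 306.3 and 382.4 intronic reads in the Dicer knockout against 5.1, 0.0 and 0.0 in TFC, and 405.5, 268.9 and 228.1 in the Dgcr8 knockout against 5.9, 6.2 and 0.0 in V6.5. Its intronic ratio of 248.7 in the Dicer pair was above its exonic ratio of 32.4, and the exonic minus intronic log2 fold change was -2.76 (SE 0.98). For Dgcr8 the intronic ratio was 74.5 and the exonic ratio 51.6, with a difference of -0.69 (SE 0.70). The wild-type intronic means rest on 10 recovered reads in each line, and with a pseudocount of 4 the intronic log2 fold change of the Dicer pair was 6.29 (SE 1.06).

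St8sia1 was the gene whose intronic change was lowest in the Dicer pair. Its introns held 188.1, 134.1 and 122.8 reads in the Dicer knockout against 16.3, 220.2 and 25.2 in TFC, and 62.3, 78.0 and 110.0 in the Dgcr8 knockout against 41.5, 10.8 and 0.0 in V6.5. Library B of TFC was above all 3 Dicer knockout libraries, so the groups overlapped, and the ratio of means was 1.70, beside 5.61 in exons. The groups of the Dgcr8 pair did not overlap and the ratio was 4.79, beside 7.61 in exons. The intronic log2 fold change of the Dicer pair, 1.66 (SE 0.96), was 2.79 without library B of TFC, where the exonic one was 2.45, and 0.95 without library A of TFC. The exonic minus intronic log2 fold change was 0.87 (SE 1.21) in the Dicer pair and -0.48 (SE 1.17) in the Dgcr8 pair. Its introns are long, and at 1.11 reads per kb in the Dicer knockout the intronic level was 0.584% of the exonic one.

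Fat2, Gpx2 and Loxl4 had few intronic reads anywhere. Fat2 was listed at 0 in the introns of both wild-type lines, against 34.0, 0.0 and 8.5 reads in the Dicer knockout and 29.0, 76.8 and 18.5 in the Dgcr8 knockout. Loxl4 had 44.7, 90.2 and 36.7 intronic reads in the Dicer knockout and was listed at 0 in TFC, and it had 1.7, 24.1 and 0.0 in the Dgcr8 knockout against 5.9, 0.0 and 0.0 in V6.5. Gpx2 had 32.7, 60.1 and 149.6 intronic reads in the Dicer knockout against 4.1, 0.0 and 0.0 in TFC, and 3.4, 0.0 and 52.1 in the Dgcr8 knockout, with V6.5 listed at 0. No fold is given against a group listed at 0. For Gpx2 in the Dicer pair the exonic minus intronic log2 fold change was -2.65 (SE 1.0), which rests on a wild-type intronic mean near 0.

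Across the 8 genes the median of the exonic minus the intronic log2 fold change was 0.50 in the Dicer pair and -0.48 in the Dgcr8 pair. These medians include fitted changes of genes whose wild-type introns were listed at 0, and over the 6 genes of each pair without them they were 0.03 and -0.56. Over the 8 genes, leaving out each library in turn, the Dicer median ranged between -0.89 and 1.32 and so changed its sign, and the Dgcr8 median between -1.03 and -0.22. The median intronic log2 fold change itself was 5.0 in the Dicer pair and 5.30 in the Dgcr8 pair, where the medians of all genes tested were 0.05 and -0.05, and 4.69 and 4.43 with the genes at 0 in wild type put at their lower bound. Intronic reads here measure polyadenylated RNA that holds intron sequence, and whether transcription or stability differs was not tested.

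**Figure D4:**
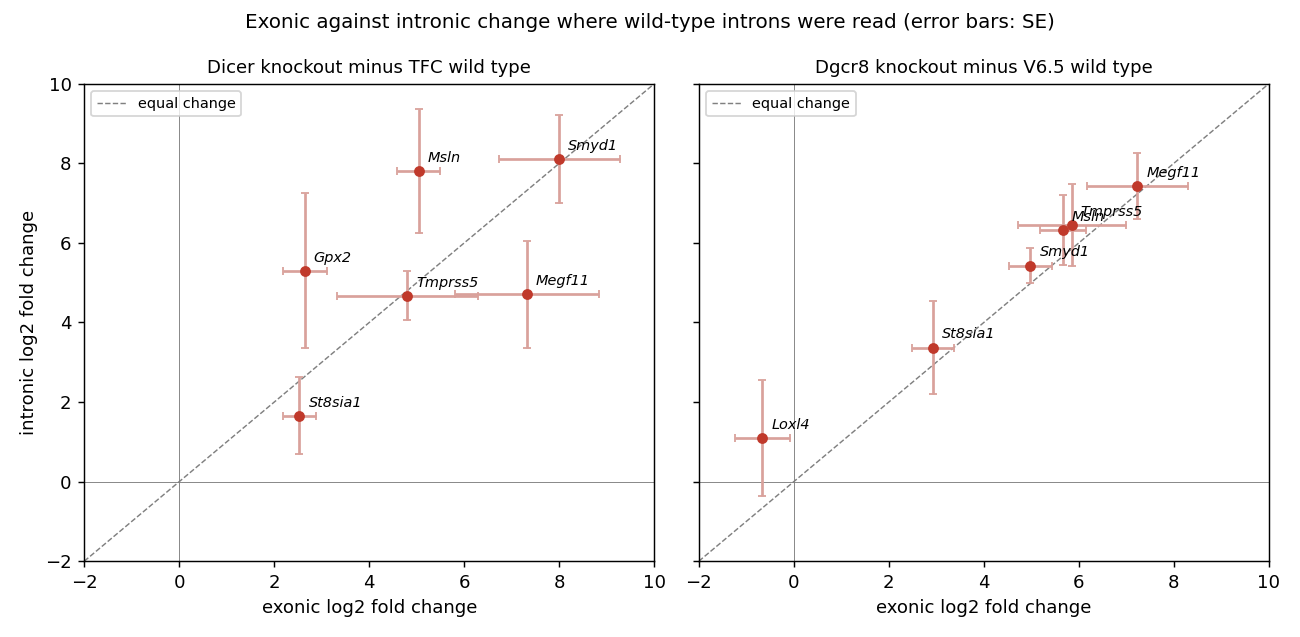
Exonic (horizontal axis) and intronic (vertical axis) log2 fold change knockout minus wild type, of the 6 genes in the Dicer pair (left) and 6 in the Dgcr8 pair (right) whose wild-type introns are above 0, with SE bars and a dashed line of equal change. For Dgcr8 the genes lie along the dashed line, with Loxl4 near the origin; in the Dicer pair they scatter to both sides of it, with Msln and Gpx2 above it and Megf11 and St8sia1 below it.

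The neighbours of these genes were not used to choose them, and were tested. Of the 32 nearest measured genes, 2 on each side of each gene, 26 could be tested in the Dicer pair, and 2 of them rose while 0 fell, beside 1.02% of all genes tested that rose. Krcc1, next to Smyd1, rose to a mean of 2033.4 reads in the Dicer knockout, against 535.1 reads in TFC (log2 fold change 1.87, SE 0.32, limma adjusted p = 0.0365, range over the alternatives 0.00188 to 0.282). Krcc1 lies on the plus strand, and the annotated span of Smyd1 on the minus strand overlaps it. Whether the authors' counting used strand, which would keep reads of such an overlap apart, was not stated in the sources used here. The bases counted for Smyd1, 3361 in exons and 44801 in introns, are fewer than that span holds. Whether the counted parts of Smyd1 reach Krcc1 was not tested. Sparc, a matricellular glycoprotein, 57.9 kb from Fat2, rose to 20894.5 reads in the Dicer knockout, against 4280.6 in TFC (log2 fold change 2.30, SE 0.34, limma adjusted p = 0.0279, range over the alternatives 4.3e-05 to 0.237). Both calls were lost when library B or C of either group was left out. Counted by libraries alone, 5 tested neighbours stood higher and 3 lower without overlap in the Dicer knockout, and 7 higher and 1 lower in the Dgcr8 knockout. Beside them, 11.7% and 10.6% of all genes tested in the 2 pairs were higher without overlap, and 21.3% and 22.5% lacked overlap in either direction.

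Among 24 neighbours tested in the Dgcr8 pair 0 passed by limma, while 7 had an unadjusted p under 0.05 and 6 passed when a term for library A was added. Krcc1 had 1406.4 reads in the Dgcr8 knockout and 663.6 in V6.5 (adjusted p by limma 0.425), and Sparc had 9991.5 reads in the Dgcr8 knockout and 12111.6 in V6.5 (adjusted p by limma 0.94). Other neighbours stood at or near 0 in knockout and wild type alike: Cd8b1, 0.6 kb from Smyd1, Slc36a2, 65.5 kb from Fat2, and Gm4894, 132.9 kb from Tmprss5, were listed at 0 in all 4 groups. Mslnl, the mesothelin-like gene 0.3 kb from Msln, had 14.1 reads in the Dicer knockout against 1.78 in TFC, and 13.2 in the Dgcr8 knockout against 1.69 in V6.5. Rab15, a small GTPase gene 2.4 kb from Gpx2, had 1223.7 reads in the Dicer knockout against 573.5 in TFC (limma adjusted p = 0.105, and 0.00808 with a term for library A), and 638.9 in the Dgcr8 knockout against 849.8 in V6.5 (limma adjusted p = 0.53). Usp28, a deubiquitinase gene 38.7 kb from Tmprss5, had 2807.6 reads in the Dicer knockout against 4175.2 in TFC, and 4056.3 in the Dgcr8 knockout against 1868.0 in V6.5 (limma adjusted p = 0.263 and 0.164, and 0.0288 and 0.0216 with that term). Fntb, on the opposite strand, spans Gpx2 and had 1879.4 reads in the Dicer knockout against 1365.3 in TFC (limma adjusted p = 0.404), and 1731.0 in the Dgcr8 knockout against 755.1 in V6.5 (limma adjusted p = 0.135).

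**Figure D5:**
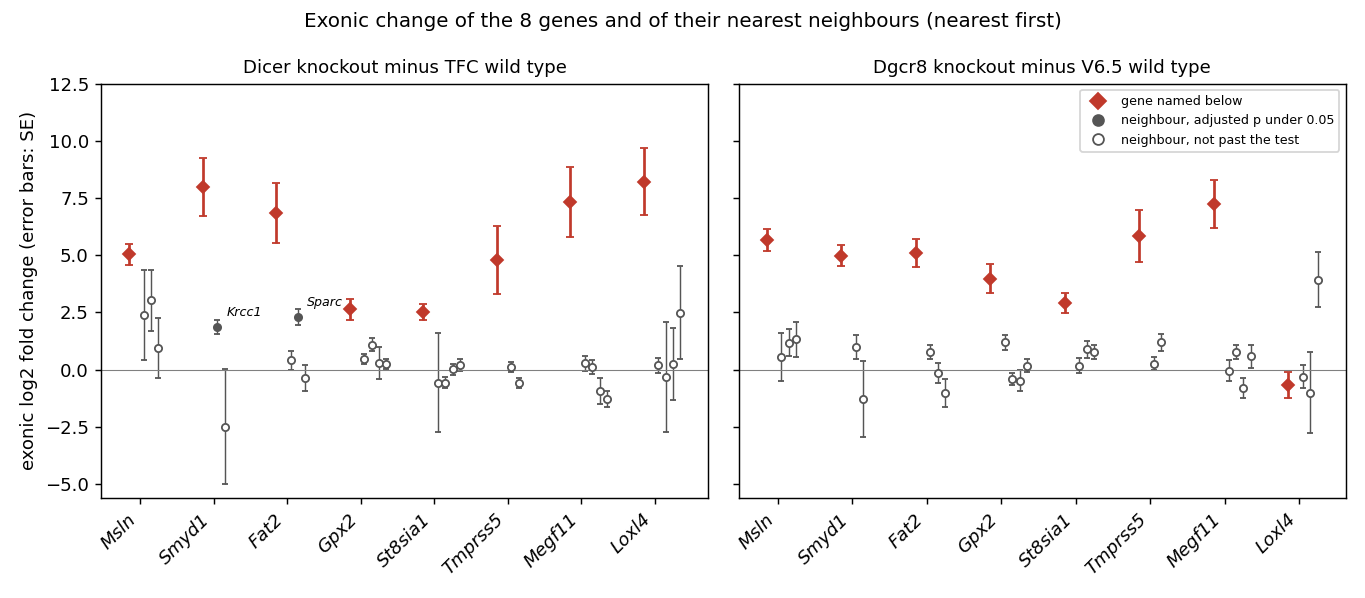
Exonic log2 fold change with SE (vertical axis), knockout minus wild type, of each of the 8 genes (red diamonds) and of its tested neighbours (grey circles, nearest first to the right), for the Dicer pair (left) and the Dgcr8 pair (right); filled circles passed the test. Krcc1 and Sparc in the Dicer pair are the filled circles, and all other neighbours are open.

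Among relatives of the 8 genes by sequence family, none passed the test as higher in either pair. Of 48 listed relatives 30 could be tested in the Dicer pair and 0 passed by limma, while 7 had an unadjusted p under 0.05 and 3 passed when a term for library A was added. Of 33 tested in the Dgcr8 pair, 0 rose and 1 fell, beside 0.518% of all genes that fell, and with a term for library A 3 rose and 8 fell. That gene was Tmprss2, a membrane serine protease of epithelia, with 0.518 reads in the Dgcr8 knockout and 244.8 in V6.5 (log2 fold change -7.24, SE 1.03, limma adjusted p = 0.0307). Leaving out library B or C of either group ended this call. The median log2 fold change of the relatives was 0.14 in the Dicer pair and -0.67 in the Dgcr8 pair, where all genes had -0.01 and -0.08. By libraries alone, 7 tested relatives were higher and 4 lower without overlap in the Dicer knockout, and 3 were higher and 7 lower in the Dgcr8 knockout. Of all genes tested, 11.7% in the Dicer pair and 10.6% in the Dgcr8 pair were higher without overlap. In either direction these shares were 21.3% and 22.5%.

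Smyd2, a methyltransferase of the same family as Smyd1, averaged 885.6 reads in the Dicer knockout against 370.3 in TFC, and 703.6 in the Dgcr8 knockout against 324.6 in V6.5, without overlap in either pair and without passing the test (limma adjusted p = 0.228 and 0.208, and 0.0546 and 0.03 with a term for library A). Smyd5 had 2234.5 reads in the Dicer knockout against 4011.2 in TFC, lower without overlap, and 1994.8 in the Dgcr8 knockout against 2166.6 in V6.5 (limma adjusted p = 0.143 and 0.91, and 0.00852 and 0.741 with that term). Smyd4 had 279.4 reads in the Dicer knockout against 633.5 in TFC, also lower without overlap, and 243.3 in the Dgcr8 knockout against 284.7 in V6.5. Fat1, another FAT protocadherin, had 11069.7 in the Dicer knockout against 10972.0 in TFC, and 8650.1 in the Dgcr8 knockout against 20676.8 in V6.5 (limma adjusted p = 0.987 and 0.211). Gpx4, the peroxidase of membrane lipids, had 9380.0 reads in the Dicer knockout against 7685.1 in TFC, and 5871.1 in the Dgcr8 knockout against 4220.4 in V6.5. Gpx1, the widespread cytosolic peroxidase, had 6294.2 reads in the Dicer knockout against 3019.5 in TFC, higher without overlap, and 4192.7 in the Dgcr8 knockout against 3442.5 in V6.5 (limma adjusted p = 0.122 and 0.916, and 0.0105 and 0.595 with a term for library A). Gpx3, the secreted peroxidase, had 47.1 reads in the Dicer knockout against 144.2 in TFC, and 85.8 in the Dgcr8 knockout against 416.2 in V6.5, lower without overlap in the Dgcr8 pair (limma adjusted p = 0.472 and 0.131, and 0.26 and 0.0216 with that term). Gpx7 had 747.5 reads in the Dicer knockout against 121.4 in TFC, and 564.2 in the Dgcr8 knockout against 149.4 in V6.5, again without overlap and without passing the test (limma adjusted p = 0.285 and 0.0917, and 0.0808 and 0.00972 with that term). St8sia6, a sialyltransferase of the family of St8sia1, had 39.0 reads in the Dicer knockout against 199.4 in TFC, and 24.5 in the Dgcr8 knockout against 45 in V6.5. Megf10, a close relative of Megf11, had 2.56 reads in the Dicer knockout with TFC listed at 0, and 28.8 in the Dgcr8 knockout against 17.9 in V6.5.

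Genes that work beside the 8 were gathered in 8 lists of tissue or pathway genes. Of 111 listed genes 85 were tested in the Dicer pair, of which 2 rose (1.02% of all genes tested did) and 0 fell, and 88 in the Dgcr8 pair, of which 0 rose and 4 fell (0.518% of all genes tested did). Spint1, an inhibitor of membrane-bound serine proteases, rose to 2181.4 reads in the Dicer knockout, against 754.2 in TFC (log2 fold change 1.55, SE 0.26, limma adjusted p = 0.036). No listed gene was called when library B or C of any group was left out, while 10 were without library A of TFC and 19 without library A of the Dgcr8 knockout. Spint1 was the 1 call of 8 tested genes of the list of surface serine proteases around Tmprss5, where 0 of 7 passed in the Dgcr8 pair (1 at an unadjusted p under 0.05 and 1 with a term for library A).

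The list of heart and muscle genes around Smyd1 had 11 tested genes of 23 in the Dicer pair and 14 in the Dgcr8 pair, with 0 calls by limma in both. At an unadjusted p under 0.05 these were 3 and 5 genes, and with a term for library A 3 and 4. The median log2 fold change was -0.32 in the Dicer pair and -1.0 in the Dgcr8 pair. Without overlap, 3 genes were higher and 1 lower in the Dicer knockout, and 2 higher and 3 lower in the Dgcr8 knockout. In either direction, 21.3% and 22.5% of all genes tested lacked overlap. Ttn, the giant sarcomere protein, averaged 6412.9 reads in the Dicer knockout against 2757.0 in TFC, and 7994.1 in the Dgcr8 knockout against 1190.5 in V6.5 (limma adjusted p = 0.306 and 0.0724, and 0.00943 and 0.000259 with a term for library A), without overlap in either pair. Mef2d, a muscle transcription factor also active elsewhere, had 2538.7 reads in the Dicer knockout against 1008.4 in TFC, and 1550.1 in the Dgcr8 knockout against 868.0 in V6.5 (limma adjusted p = 0.121 and 0.246, and 0.00383 and 0.0246 with that term). Acta1, skeletal muscle actin, stood at 29.9 reads in the Dgcr8 knockout against 404.3 in V6.5, and Myh7, a slow myosin heavy chain, at 6.05 against 115.8, both lower without overlap (log2 fold changes -5.62, SE 1.49, and -4.72, SE 1.14, limma adjusted p = 0.116 and 0.0945, and 0.00742 and 0.0141 with that term). The myogenic regulators Myog and Myf5 were listed at 0 in both groups of the Dicer pair, and Myod1 in both groups of the Dgcr8 pair.

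The mesothelial list around Msln had medians of opposite sign in the 2 pairs, a difference that was not tested. For Dicer, 10 of 14 genes were tested, 0 passed by limma (5 at an unadjusted p under 0.05 and 2 with a term for library A), and the median log2 fold change was 1.27. For Dgcr8, 9 were tested, 0 rose and 2 fell, with a median of -3.34. The keratins Krt8 and Krt18 fell to 314.0 and 171.4 reads in the Dgcr8 knockout, against 5086.6 and 5208.6 in V6.5 (log2 fold changes -4.42, SE 0.68, and -5.55, SE 0.76, limma adjusted p = 0.0337 and 0.0263). Wt1, a transcription factor of mesothelium, had 542.6 reads in the Dgcr8 knockout against 94.6 in V6.5 (limma adjusted p = 0.0616, and 0.00331 with a term for library A), and 295.8 in the Dicer knockout against 180.5 in TFC. Msln was high in the Dgcr8 knockout while the keratins of mesothelium were low there.

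Around Loxl4, 2 of 16 tested genes of matrix crosslinking fell in the Dgcr8 knockout and 0 of 14 passed by limma in the Dicer knockout (3 at an unadjusted p under 0.05 and 1 with a term for library A). Col1a1, a chain of fibrillar collagen, fell to 48.0 reads in the Dgcr8 knockout, against 1374.5 in V6.5 (log2 fold change -5.12, SE 0.64, limma adjusted p = 0.0248), and Bmp1, the protease that trims procollagen, fell to 34.7 reads, against 498.2 in V6.5 (log2 fold change -4.06, SE 0.74, limma adjusted p = 0.0498). Beside them, 3 of the 9 fibroblast markers tested fell in the Dgcr8 pair, among them Col1a1 itself. The summed level of all 10 genes of that list was 498.9 to 1373.5 reads in the Dgcr8 knockout and 5748.6 to 13111.2 in V6.5, while it was 401.3 to 638.4 in the Dicer knockout and 392.7 to 779.5 in TFC. The 10 trophectoderm markers, of which Krt8 and Krt18 are a part, summed to 1456.6 to 2746.2 reads in the Dgcr8 knockout and 10903.8 to 14606.3 in V6.5, and the 8 others to 1296.7 to 1670.6 and 1798.1 to 3313.6. No marker of either list was at 0 in both groups of the pair. A lower number of cells of another type and less RNA per cell cannot be told apart in such libraries, and the part of these cells in the level of Loxl4 in V6.5 was not tested.

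The Nrf2 antioxidant list around Gpx2 had 0 calls by limma among 15 tested genes in the Dicer pair and 16 in the Dgcr8 pair, with 7 and 6 at an unadjusted p under 0.05, and 7 in each with a term for library A. The median log2 fold change was 0.53 in the Dicer pair and 0.68 in the Dgcr8 pair, with 14 genes higher in each knockout. Gsta4, a glutathione transferase, had 8435.5 reads in the Dicer knockout against 7701.9 in TFC, and 5476.7 in the Dgcr8 knockout against 2629.8 in V6.5 (limma adjusted p = 0.89 and 0.134). Txnrd1, thioredoxin reductase, had 9331.9 reads in the Dicer knockout against 8800.0 in TFC, and 8073.3 in the Dgcr8 knockout against 6683.8 in V6.5. The ganglioside list around St8sia1 had 0 calls by limma among 13 tested genes in the Dicer pair and 12 in the Dgcr8 pair, with 1 and 2 at an unadjusted p under 0.05 and 1 and 3 with a term for library A. Ugcg, which makes glucosylceramide at the start of that pathway, had 1971.2 reads in the Dicer knockout against 1494.5 in TFC, and 1414.5 in the Dgcr8 knockout against 1675.9 in V6.5. The engulfment list around Megf11 had 0 calls by limma among 9 genes in each pair, with 2 and 4 at an unadjusted p under 0.05 and 0 and 5 with a term for library A. The stratified epithelium list around Fat2 had 5 tested genes in each pair. In the Dicer pair all 5 were higher, with a median log2 fold change of 2.79. Of these, 1 passed as higher by limma, beside 1.02% of all genes tested, and 4 did with a term for library A. The Dgcr8 pair had 0 calls by limma, 3 of 5 genes higher and a median of 0.15, and with that term 1 rose and 2 fell. Krt5 of this list, which marks the basal layer, was listed at 0 in all 4 groups.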

How the data were processed

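Polyadenylated RNA of 12 libraries in 4 groups was measured. The submitters' processing notes name the aligner TopHat2 2.0.12, the package DESeq and the genome build mm10; the rule that split reads into exonic and intronic was not stated in the sources used here. As deposited, the 4 tables by the authors hold signal, exonic and intronic reads normalised by a size factor, with 1 column of group means per genotype, per the file headers. The tests had been planned for single libraries. Because the means are printed in full, each is a whole-number sum of 3 steps, 1 per library, and solving these gave the reads of each library for 99.44 to 100.0% of genes of a column; genes with several solutions (at most 103) were left out of the tests. In simulated columns of 18412 genes, 98.33% and 100.0% had 1 solution, and 100.0% of those were right. Between 60.2 and 80.4% of read numbers were even, which lowers precision below that of the read totals, so intervals for counting error are left out. The replicate numbers of the labels cannot be tied to these libraries; A correlates least with the others, B and C follow by size factor, and intronic libraries were matched to exonic ones by their deviations, clearly for A (r at least 0.306) and weakly for B and C (r at least 0.093).

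Tests used limma 3.58.1 in R 4.3.3 with a variance trend on log2(value + 1), for genes averaging at least 10 over 6 libraries, within each table; Benjamini-Hochberg adjusted p under 0.05 over the whole table counts as passing, with 4 residual degrees of freedom. Fold changes are differences between group means of log2(value + 1), and changes of genes under the filter come from the fit without it. The added 1 shrinks changes of low genes, while single wild-type libraries at 0 can raise them above the log2 of the ratio of means. In Dicer exons Loxl4 had a ratio of 96.0 and a log2 fold change of 8.21, and Smyd1 had 125.6 and 8.0. An exact permutation test of 3 against 3 libraries reaches no p under 0.1. The p-values reflect how far these libraries spread, and that spread may be technical. In simulated counts of the Dicer table with a dispersion of 0.02, 87% of genes changed 2-fold and 98% of those changed 8-fold were recovered; with a dispersion of 0.2, 3% and 90%. Alternatives were a pseudocount of 4, no filter, no trend, a term for library A against B and C, median-of-ratios scaling and each library left out. The term for library A was derived from the same values that it was used to test.

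The 8 genes and all lists were chosen with earlier results of these data known; a family, pathway or neighbouring gene was to be named where it passed the test in either exon table, with up to 4 others of its list by highest level, and exceptions (Fntb, Cd8b1, Slc36a2 and Gm4894 for their position, Krt5, Myog, Myf5 and Myod1 as defining markers, Rab15, Usp28, Acta1 and Myh7 for libraries that did not overlap) were named after their values were seen. Of the gene symbols, 18025 were found in GENCODE vM21 (GRCm38, the build of mm10), from which coordinates and 3' UTRs come. Values of 2 genes that the rules would have named are not reported here.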

Additional observations from a re-analysis of the deposited data

Results flagged for a closer look

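Krt8, Tagln, Rab15 and Usp28 had knockout libraries on opposite sides of the wild-type ones in the 2 pairs. Other listed genes did so too, among them Krt7 (log2 fold changes 4.97 in the Dicer pair and -5.92 in the Dgcr8 pair), Gata3 (3.44 and -1.49) and Lrrn4 (1.23 and -0.85). The share of all genes with this pattern was not counted. Krt8 stood at 761.7, 493.0 and 698.5 reads in the Dicer knockout against 251.4, 125.1 and 158.2 in TFC, and at 686.8, 132.1 and 123.1 in the Dgcr8 knockout against 5352.5, 6907.6 and 2999.7 in V6.5. Every Dicer knockout library was above every TFC library and every Dgcr8 knockout library below every V6.5 library, and the 2 log2 fold changes differ by 6.32 (limma adjusted p of knockout against wild type = 0.104 within the Dicer pair and 0.0337 within the Dgcr8 pair). Tagln, a smooth muscle and fibroblast marker, stood at 291.4, 515.7 and 482.0 reads in the Dicer knockout against 125.2, 62.5 and 123.7 in TFC, and at 872.8, 311.5 and 260.6 in the Dgcr8 knockout against 2988.6, 5632.0 and 3454.0 in V6.5, and its log2 fold changes differ by 5.29 (limma adjusted p within the pairs = 0.153 and 0.0337). Rab15, near Gpx2, stood at 1289.4, 1221.1 and 1160.6 reads in the Dicer knockout against 658.0, 510.2 and 552.3 in TFC, and at 733.9, 561.7 and 621.2 in the Dgcr8 knockout against 883.6, 789.3 and 876.6 in V6.5. Between the pairs its log2 fold changes differ by 1.52 (limma adjusted p within the pairs = 0.105 and 0.53). Usp28, near Tmprss5, stood at 3173.1, 2762.5 and 2487.2 reads in the Dicer knockout against 4051.2, 4455.9 and 4018.5 in TFC, and at 3145.1, 4052.9 and 4971.0 in the Dgcr8 knockout against 2866.7, 1237.4 and 1499.9 in V6.5. The Dicer value minus the Dgcr8 value, both log2 fold changes, was -1.77 (limma adjusted p within the pairs = 0.263 and 0.164). These differences between the pairs were not tested.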

How the results depend on the processing

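Medians of the 8 genes kept their direction under every alternative run, except the exonic minus intronic median of the Dicer pair. Leaving out each library in turn, the median log2 fold change ranged from 5.28 to 6.77 in Dicer exons, 4.74 to 5.51 in Dicer introns, 4.74 to 5.14 in Dgcr8 exons and 4.97 to 5.51 in Dgcr8 introns, and the exonic minus intronic median from -0.89 to 1.32 in the Dicer pair and -1.03 to -0.22 in the Dgcr8 pair. With a pseudocount of 4 the intronic median of the Dgcr8 pair was 4.27. Of the values of single genes under alternatives, 315 moved by less than 1 SD and 4 by more, all at a pseudocount of 4 in introns: Msln 6.29 and Gpx2 3.82 in the Dicer pair, and Loxl4 in the Dicer pair and Fat2 in the Dgcr8 pair, for which no fold is given because wild-type introns were listed at 0. Moves larger than the limma SE are among the 315. In Dicer introns Megf11 went from 4.71 (SE 1.34) to 2.33 without library B of TFC, and Smyd1 from 8.1 (SE 1.1) to 9.65 without library A of TFC.

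Counts of genes past the test depended far more on the setting. Over all genes, with 164 called in Dicer exons, 41 in Dicer introns, 161 in Dgcr8 exons and 163 in Dgcr8 introns, a term for library A gave 1605, 91, 2158 and 451 in that order, and a fit without a variance trend 35 in Dicer exons, 1 in Dicer introns and 107 in Dgcr8 introns. A pseudocount of 4 gave 63 in Dicer introns and 245 in Dgcr8 introns. Leaving out each library gave 0 to 483, 0 to 37, 0 to 464 and 26 to 176 in the order above. At an unadjusted p under 0.05, 1904, 1176, 2068 and 1561 genes passed. With a term for library A, 7 neighbours, 3 family genes and 21 pathway genes passed in the Dicer pair, and 6, 11 and 36 in the Dgcr8 pair. Without a trend, 0 neighbours and 0 pathway genes passed in the Dicer pair and 1 pathway gene in the Dgcr8 pair. Leaving out each library gave 0 to 2 neighbours, 0 to 2 family genes and 0 to 10 pathway genes in the Dicer pair, and 0 to 0, 0 to 3 and 0 to 19 in the Dgcr8 pair. The cause of these shifts was not tested.

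No paired analysis was possible because the replicate numbers of the labels could not be tied to the recovered libraries, so the replicate block was not run. Depth limits the intronic values: wild-type introns of Fat2 hold 0 recovered reads in both lines, and those of Msln 10 reads in each line.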
